A study of Mus musculus with 7 samples.

Results

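The mouse Prl2c genes encode the proliferins, secreted hormones of the prolactin family, and they were read here in C2C12 myotubes with and without electrical pulse stimulation (EPS). The members were 4 gene symbols, Prl2c2, Prl2c3, Prl2c4 and Prl2c5, and 3 of them were found among the 26607 genes listed for each library. Prl2c4 was not among the listed symbols, and RefSeq gives this name as an older name of Prl2c3. The genes were chosen by their measured CPM in the EPS against the control libraries, so their difference between the groups is described below without a test. C2C12 is a line of mouse myoblasts that fuse into contractile myotubes when serum is lowered. All 7 libraries were poly(A) RNA-seq of this line, with 3 untreated control libraries (replicates 1, 3 and 4) and 4 libraries of myotubes that had EPS over 24 h, starting 3 days after differentiation, and then rested for 1 h (replicates 1 to 4). EPS makes cultured myotubes contract and was used by the study as a model of exercise without other organs. The culture is of a single line, without nerve or vessels.

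The proliferins are known as growth-linked products of mouse fibroblast lines and as products of the placenta, where trophoblast giant cells secrete them. The protein binds the mannose 6-phosphate and insulin-like growth factor 2 receptor (Igf2r) and is known to draw endothelial cells into new vessels. Transcription of proliferin is a textbook case of joint control by AP-1, the FOS and JUN dimer, and by the glucocorticoid receptor. These points are background and were not measured here.

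The 3 genes lie close together on chromosome 13 of GRCm38, by GENCODE M21. Prl2c3 (ENSMUSG00000056457.6) runs from 12790816 to 12800079 on the minus strand. Prl2c2 (ENSMUSG00000079092.4), proliferin itself, runs from 12996125 to 13005383 on the minus strand, 196 kb further on. Prl2c5 (ENSMUSG00000055360.13) runs from 13182715 to 13191923 on the plus strand, after another 177 kb. Each has 5 exons, and the transcripts have 842 bases (Prl2c2), 857 bases (Prl2c3) and 844 bases (Prl2c5). A further relative, Prl2c1, lies 14657 kb from Prl2c5 and had 0 reads in all 7 libraries.

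The transcripts are so alike that a stretch of 100 bases, the length of 1 read of a pair, cannot always be placed. The reads were paired-end, and the mate, which these counts leave out, can place some of them. Prl2c2 and Prl2c3 had 838 identical bases of 842 aligned, and their coding sequences differed at 3 of 672 bases. Prl2c5 was farther from both, with 96.6% identity to Prl2c2 and 96.4% to Prl2c3 over the aligned transcript. Of the 743 stretches of 100 bases in the Prl2c2 transcript, 472 were also found unchanged in Prl2c3, and 21 in Prl2c5. Of the 745 such stretches in Prl2c5, 21 were found in Prl2c2, 44 in Prl2c1 and 0 in Prl2c3. A pseudogene that is not among the listed symbols, Gm7040, shared 129 stretches with Prl2c2 and the same number with Prl2c3. How reads were split between Prl2c2 and Prl2c3 is therefore uncertain, while most of the Prl2c5 transcript can be told from both. The opening 240 coding bases of each gene, from the GENCODE M21 transcripts, are printed to show how few letters carry this distinction. Capitals mark the 8 positions at which the 3 genes do not all have the same base. Of these positions, 6 set Prl2c5 apart from the other two, 2 set Prl2c3 apart and 0 set Prl2c2 apart.
Prl2c2: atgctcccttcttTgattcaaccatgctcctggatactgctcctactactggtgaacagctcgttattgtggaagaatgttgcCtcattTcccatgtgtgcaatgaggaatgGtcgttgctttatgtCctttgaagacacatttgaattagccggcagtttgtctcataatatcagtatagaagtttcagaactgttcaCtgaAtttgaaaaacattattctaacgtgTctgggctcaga
Prl2c3: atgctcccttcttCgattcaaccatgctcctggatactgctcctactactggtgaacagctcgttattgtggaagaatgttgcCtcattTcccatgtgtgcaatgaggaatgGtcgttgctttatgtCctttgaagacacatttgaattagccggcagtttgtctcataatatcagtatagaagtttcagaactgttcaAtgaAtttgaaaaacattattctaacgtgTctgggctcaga
Prl2c5: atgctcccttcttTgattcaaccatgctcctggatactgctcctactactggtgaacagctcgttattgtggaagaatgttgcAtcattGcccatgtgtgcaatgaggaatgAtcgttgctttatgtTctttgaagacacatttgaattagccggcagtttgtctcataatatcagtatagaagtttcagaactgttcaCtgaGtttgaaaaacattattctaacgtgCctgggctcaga

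Recovered reads per library totalled between 16616917 and 22120641. A level of 3 reads, between 0.136 and 0.181 CPM (a library's reads on a gene scaled to a fixed total), was set as the floor under which a gene cannot be told from 0. The floor and the intervals below allow for counting error alone, as PCR copies of a molecule give reads that are not independent. Among the libraries, control replicate 4 stood apart, with 359 genes of 1 to 5 reads, where each of the other libraries had 2670 to 3181. Its 0 for a gene of low level therefore says less than a 0 elsewhere. Myotube markers summed to between 9318 and 14402 CPM in the control libraries and between 7756 and 10691 CPM in the EPS libraries so the cells carried the genes of the labelled cell type. In bulk RNA, a change in the number of cells of a type cannot be told apart from a change in RNA per cell.

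All 3 Prl2c genes were read in every EPS library, and in untreated myotubes none passed the floor except Prl2c5 in 1 library. Prl2c2 had 0 reads in each of the 3 control libraries, while EPS replicates 1 to 4 held 12, 18, 6 and 186 of its reads. These were 0.559, 0.877, 0.274 and 9.88 CPM. No control library reached any EPS library, and EPS replicate 4 was far above the other EPS libraries. Its level was 17.3 times the mean of EPS replicates 1 to 3. The mean CPM was 2.90 ± 4.66 (SD, n = 4) with EPS, and 0.570 ± 0.302 (SD, n = 3) without replicate 4. Against the floor of 3 reads in each control library, Prl2c2 was at least 17.7-fold higher with EPS by the ratio of mean CPM, and at least 3.48-fold higher without EPS replicate 4. Without control replicate 4 the bound was 16.3, and without both it was 3.21.

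As the reads were split, Prl2c3 was the most abundant member in each EPS library, and its lead over Prl2c2 depends on that split. Control replicates 1, 3 and 4 held 1, 1 and 0 of its reads, while EPS replicates 1 to 4 held 35, 67, 25 and 444. In CPM, the EPS libraries were at 1.63, 3.26, 1.14 and 23.6, against at most 0.0602 in a control library. The groups did not overlap, and EPS replicate 4 again held most of the signal, at 11.7 times the mean of the other EPS libraries. The control mean was 0.0395 ± 0.0342 CPM (SD, n = 3), and the EPS mean was 7.40 ± 10.8 CPM (SD, n = 4), or 2.01 ± 1.11 CPM (SD, n = 3) without EPS replicate 4. The ratio of pooled reads was 193, with a 95% exact interval of 53.1 to 1596 that is wide because it rests on 2 control reads. Without EPS replicate 4 it was 55.5 (15.1 to 464), and without control replicate 4 it was 117 (32.1 to 965). Each control value lay under the floor of 3 reads, so these ratios are no exact folds.

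Prl2c5 behaved less evenly in the control group. Its reads numbered 0 and 1 for control replicates 1 and 3 but 14, or 0.633 CPM, for control replicate 4, against 18, 31, 17 and 59 reads over EPS replicates 1 to 4. The EPS values of 0.838, 1.51, 0.777 and 3.13 CPM all lay above the control values, but EPS replicate 3 and control replicate 4 were close neighbours. The control mean was 0.231 ± 0.349 CPM (SD, n = 3), and the EPS mean was 1.56 ± 1.10 CPM (SD, n = 4). The ratio of pooled reads was 5.63 (95% exact interval 3.29 to 10.4). It became 51.0 (8.99 to 2031) without control replicate 4, when 1 control read was left, which is under the floor. Without EPS replicate 4 it was 3.85 (2.17 to 7.26). The excess of EPS replicate 4 over the mean of the other EPS libraries was 3.01 times for Prl2c5, smaller than for the other members.

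**Figure D1:**
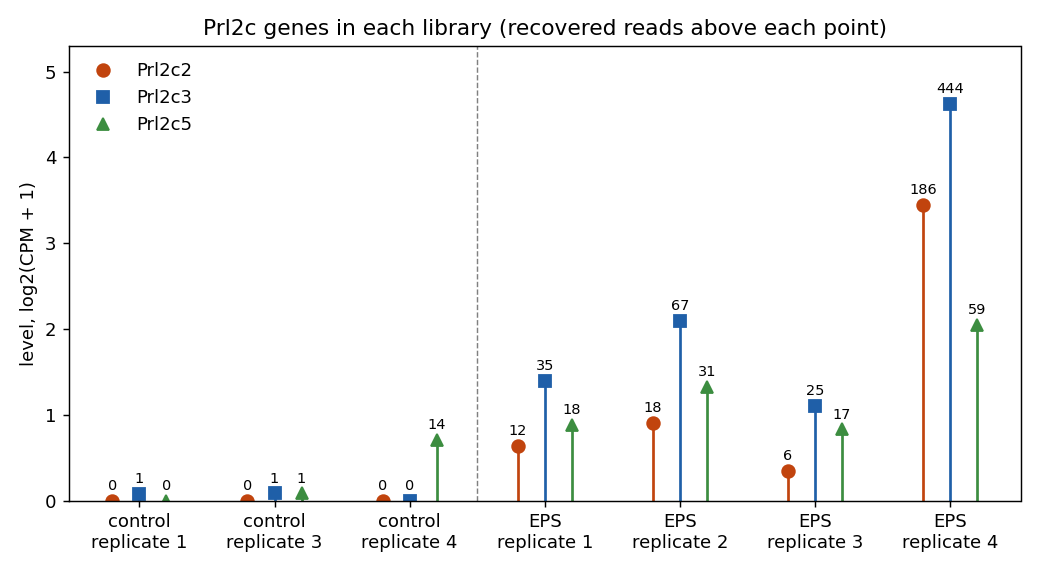
Level of each Prl2c gene in each of the 7 libraries, as log2(CPM + 1) on the vertical axis, with the recovered reads written above each point. The control libraries hold at most 1 read of Prl2c2 and Prl2c3, control replicate 4 holds 14 reads of Prl2c5, and EPS replicate 4 holds the highest value of each gene.

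The sum of the 3 genes is not moved by how reads were split among them. It came to 1, 2 and 14 reads for control replicates 1, 3 and 4, against 65, 116, 48 and 689 for EPS replicates 1 to 4. In CPM the sum was 0.0583, 0.12 and 0.633 in the control libraries and 3.03, 5.65, 2.19 and 36.6 in the EPS libraries. Of the 17 control reads, 14 were of Prl2c5 in control replicate 4. The ratio of pooled reads was 36.5 (95% exact interval 22.7 to 62.9), with 11.8 (7.20 to 20.6) without EPS replicate 4 and 125 (42.6 to 607) without control replicate 4. That last ratio rests on control values under the floor. Prl2c2 and Prl2c3 counted together had 1, 1 and 0 control reads and 47, 85, 31 and 630 EPS reads.

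On the log2(CPM + 1) scale, which pulls the change of low genes toward 0, the difference of EPS minus control was 2.25 for Prl2c3 (standard error 0.73), 1.34 for Prl2c2 (0.64) and 1.01 for Prl2c5 (0.30). The order of these differences was that of the EPS means, and the standard error was smallest for the gene with the most even EPS values. Without EPS replicate 4 the differences were 1.47, 0.63 and 0.75, so Prl2c5 then stood above Prl2c2. Without control replicate 4 that of Prl2c5 was 1.23. The EPS libraries lay wholly above the control libraries for 3 of 3 members, where 7.76% of the 19144 tested genes did so and 2.85% lay wholly below. Nothing is read from this count, because the same contrast had chosen the genes, and no test of the members is given. For the genes below that are no members, a call means more than 2-fold and an unadjusted P under 0.01 in limma, which 1.41% of tested genes passed, 0.966% upward and 0.439% downward. An unadjusted P under 0.05 was reached by 11.6% of tested genes and a limma adjusted p under 0.05 by 0.141%. The replicates are not stated to be separate cultures, so every P-value here measures the spread between these libraries, which may be technical.

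**Figure D2:**
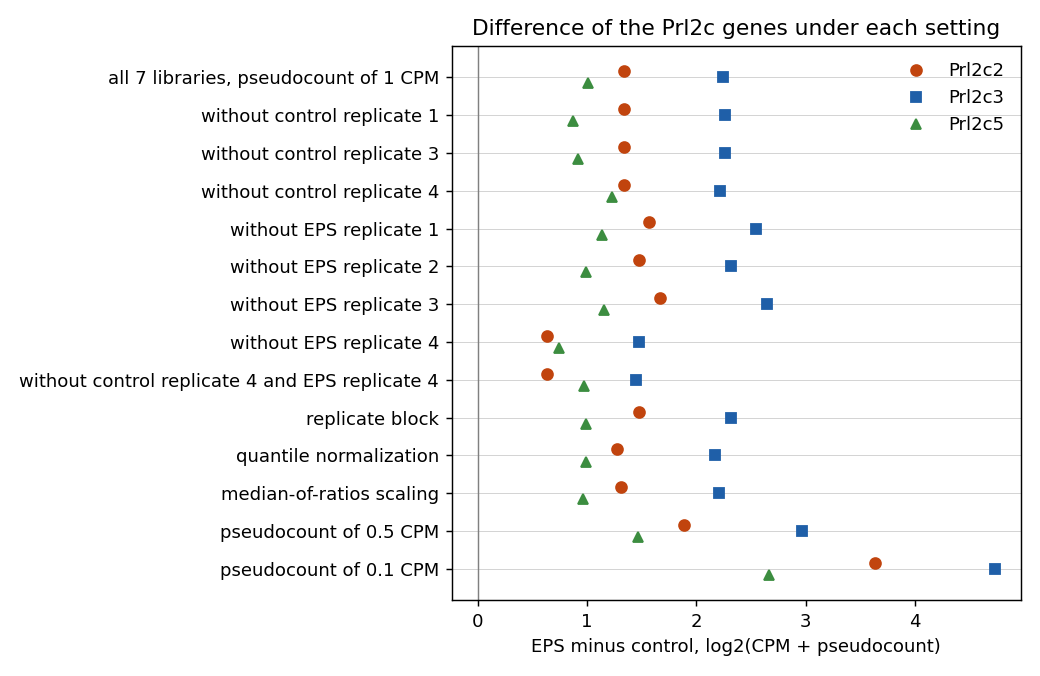
Difference of EPS minus control for each Prl2c gene on the log2 scale, with all libraries, without each library, and under other normalizations and pseudocounts. All points lie above 0, which is no result, as the genes were chosen on this contrast and their groups do not overlap. Leaving out EPS replicate 4 gives 0.63 for Prl2c2 and 1.47 for Prl2c3, and a pseudocount of 0.1 CPM gives 3.64 and 4.73.

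Per kb of transcript, and as the reads were split, Prl2c3 led in each EPS library, at 1.90, 3.81, 1.33 and 27.5 CPM per kb in replicates 1 to 4. Prl2c5 came next in EPS replicates 1 to 3, at 0.993, 1.79 and 0.920 CPM per kb, above Prl2c2 at 0.663, 1.04 and 0.325. In EPS replicate 4 the order of these genes was turned, with Prl2c2 at 11.7 and Prl2c5 at 3.71 CPM per kb. With 12 against 18 reads in EPS replicate 1 and 6 against 17 in EPS replicate 3, the order of Prl2c5 and Prl2c2 rests on few reads. It also depends on how shared reads were counted, since 493 of 743 stretches of Prl2c2 but 65 of 745 of Prl2c5 occur in another transcript.

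The make-up of the Prl2c reads differed in EPS replicate 4. Prl2c5 made up 27.7%, 26.7% and 35.4% of them in EPS replicates 1 to 3, with 95% exact (Clopper-Pearson) intervals whose lowest bound was 17.3%. In EPS replicate 4 its share was 8.56% (6.58% to 10.9%), below all of those intervals. Prl2c3 held 53.8%, 57.8%, 52.1% and 64.4% in EPS replicates 1 to 4, and Prl2c2 held 18.5%, 15.5%, 12.5% and 27.0%, with intervals that mostly overlapped, except those of Prl2c2 in EPS replicates 2 (9.46% to 23.4%) and 4 (23.7% to 30.5%). In control replicate 4 all 14 Prl2c reads were of Prl2c5, with an interval of 76.8% to 100%, so as counted this library and EPS replicate 4 lay at opposite ends. Control replicate 4 held few genes of 1 to 5 reads, so its 0 for Prl2c2 and Prl2c3 says less than a 0 elsewhere. Its interval does not allow for that. Within the near-identical pair, Prl2c2 held 25.5%, 21.2%, 19.4% and 29.5% of the reads, and the interval of EPS replicate 4 (26.0% to 33.3%) overlapped that of the pooled other EPS libraries (16.0% to 29.2%). EPS replicate 4 had the highest share of Prl2c2 in the pair too, and these intervals do not hold the spread between libraries. Over all genes that spread was larger than counting error, but it was not measured for these shares. Across the 7 libraries, Pearson's r of log2(CPM + 1) was 0.98 between Prl2c2 and Prl2c3, 0.93 between Prl2c3 and Prl2c5 and 0.88 between Prl2c2 and Prl2c5. These correlations are descriptions, since the points share the contrast and the libraries, and 1 library lies far from the rest.

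**Figure D3:**
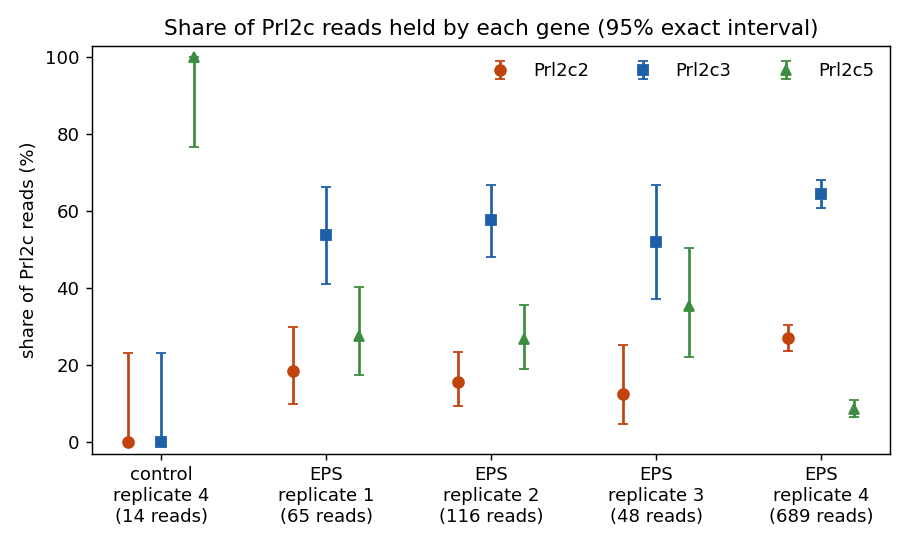
Share of the Prl2c reads of a library held by each gene, in percent, with 95% exact intervals as bars, for the libraries with more than 2 Prl2c reads. The share of Prl2c5 is 100% in control replicate 4, between 26.7% and 35.4% in EPS replicates 1 to 3, and 8.56% in EPS replicate 4.

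The likeness of the genes goes on ahead of their start sites, which the promoters are printed to show. The RefSeq promoter table of GRCm38.p6 held 2 of the members, and their 250 bases before the start are printed 5′ to 3′ on the strand of the gene. They lie at chr13:12800080-12800329 on the minus strand for Prl2c3 and at chr13:13182466-13182715 on the plus strand for Prl2c5. Capitals mark the bases that differ between them or lie opposite a gap. The aligned sequences had 241 identical and 8 different bases, an identity of 96.8%, and 2 gap bases.
Prl2c3: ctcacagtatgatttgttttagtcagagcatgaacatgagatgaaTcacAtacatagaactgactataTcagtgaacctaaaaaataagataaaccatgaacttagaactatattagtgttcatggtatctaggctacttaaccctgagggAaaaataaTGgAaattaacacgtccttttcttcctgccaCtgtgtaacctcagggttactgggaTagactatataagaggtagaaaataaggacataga
Prl2c5: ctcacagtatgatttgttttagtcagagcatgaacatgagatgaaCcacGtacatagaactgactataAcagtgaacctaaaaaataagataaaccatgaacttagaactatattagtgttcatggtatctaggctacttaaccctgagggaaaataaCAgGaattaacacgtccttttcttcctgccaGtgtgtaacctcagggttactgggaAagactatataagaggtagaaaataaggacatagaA

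Letters of the kind that AP-1 binds, TGANTCA, were searched on both strands and reads the same on each. They were found in Prl2c3 at -209 from the start, as TGAATCA, and not in this window of Prl2c5, while 6.75% of 32851 promoters of this length held them. The letters AGAACANNNTGTTC, the paired half-sites of a glucocorticoid response element, were in neither promoter and in 0.0304% of all promoters. Letters this rare would be missing from almost any promoter, and other forms of the element were not searched, so nothing is read from their absence. The TATA letters TATAA stood at -28 in Prl2c3 and at -29 in Prl2c5, with a further match at -186 in Prl2c5, and 22.8% of promoters held them on either strand. None of these motifs overlapped another. Such matches describe the letters only.

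The other genes of the prolactin family, with the receptors of prolactin and growth hormone, were read beside the members. All 25 listed genes were in the files, 15 had 0 reads in all 7 libraries and 10 were tested. In limma 0 of the 10 passed the thresholds, which 0.966% of all tested genes passed upward and 0.439% downward, and 1 had an unadjusted P under 0.05. That gene was Prl7a1, a placental prolactin relative, with 0 reads in each control library, while EPS replicates 1 to 4 held 6, 8, 3 and 4. The groups did not overlap, but these are few reads, and the 3 in EPS replicate 3 are no more than the floor. EPS replicate 4 did not stand out. The log2 difference was 0.32 (standard error 0.069, limma adjusted p = 0.114), and edgeR and DESeq2 on the recovered reads each called this 1 gene. The receptor of growth hormone, Ghr, had a control mean of 166 ± 36.3 CPM (SD, n = 3) and an EPS mean of 183 ± 62.6 CPM (SD, n = 4) (log2 difference 0.11, limma adjusted p = 0.877). The prolactin receptor Prlr, named for its role, had at most 2 reads in a library. All 10 tested genes had a positive difference, with a list median of 0.04, against 0.04 over all tested genes. Most of the 10 had 0 reads in each control library and were tested only through their EPS reads. Their sign was therefore fixed by the filter, and nothing is read from it. At levels of a few reads the pseudocount sets the list median, which was 0.21 with a pseudocount of 0.1 CPM.

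Markers of trophoblast, the placental cell type that secretes proliferin, were at or near 0 in most libraries. Of 8 markers, 5 (Ascl2, Hand1, Gcm1, Prl3b1 and Cdx2) had 0 reads in all libraries, and 7 had at most 3 reads in every library. The exception was Tpbpa, a marker of the spongiotrophoblast, with 15 reads in control replicate 4 and 0 reads in each of the other libraries. That is the control library with the 14 reads of Prl2c5. The summed trophoblast level ran from 0 to 0.678 CPM in the control and from 0.0531 to 0.0974 CPM in the EPS libraries. Macrophage markers, of which 3 of 4 were listed in the files, summed to between 0.641 and 1.08 CPM in the control and between 1.26 and 2.76 CPM with EPS, 2 ranges that did not overlap. These are low levels, 0 of the macrophage markers passed the limma thresholds, and 1 had at most 3 reads in every library. Among all tested genes, taken singly, 7.76% had every EPS library above every control library, so nothing is read from this. The ranges of the other lists overlapped, at 24.7 to 37.2 against 33.9 to 41.3 CPM for fibroblast, 0.0602 to 0.904 against 0.0914 to 0.372 CPM for endothelium, and 570 to 666 against 557 to 822 CPM for undifferentiated myoblast. Adipocyte markers had 0 CPM in the control and at most 0.140 CPM with EPS. The part of these cells in the Prl2c values was not tested.

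The next list held genes of AP-1 and the glucocorticoid receptor, known regulators of proliferin, with classical targets of that receptor such as Fkbp5 and Tsc22d3, and 1 of the 16 listed had 0 reads in all libraries. Of 15 tested genes, 0 passed the limma thresholds in either direction and 2 had an unadjusted P under 0.05, against 11.6% of all tested genes. The list median was 0.06, and -0.0088 after quantile normalization. The 2 genes are FOS-like subunits of AP-1 and are named after their values were seen. Fosl2 was at 185, 157 and 131 CPM in control replicates 1, 3 and 4, and at 223, 270, 297 and 258 CPM in EPS replicates 1 to 4. The groups did not overlap, and the log2 difference of 0.74 (standard error 0.17, limma adjusted p = 0.143) was under 2-fold. Fosl1 was low, at 1.28, 0.662 and 0.362 CPM in the control libraries and 3.16, 2.05, 1.01 and 5.74 CPM in the EPS libraries, highest in EPS replicate 4. Its groups overlapped (log2 difference 1.07, standard error 0.39, limma adjusted p = 0.328), and edgeR and DESeq2 called it. The most abundant genes of the list, Junb and Jund, had log2 differences of -0.68 and -0.20 with limma adjusted p of 0.509 and 0.862. Control replicate 4 held 697 CPM of Junb, the highest value, and the difference was -0.20 without it, while that of Jund turned to 0.19.

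The genes known to bind proliferin and to sort such proteins were present. Igf2r, its receptor, had a control mean of 154 ± 55.2 CPM (SD, n = 3) and an EPS mean of 111 ± 32.9 CPM (SD, n = 4) (log2 difference -0.46, standard error 0.28, limma adjusted p = 0.589). Igf2, the other ligand of that receptor, was at 256 ± 75.6 CPM (SD, n = 3) and 240 ± 76.6 CPM (SD, n = 4). In this list of 6 receptor and mannose 6-phosphate tagging genes, 0 passed the limma thresholds, 0 had an unadjusted P under 0.05, and edgeR and DESeq2 called 0. The median was -0.11, and turned to 0.09 without control replicate 4.

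Growth and cell cycle genes were read because proliferin is known from growing cells. Of 19 tested, 1 passed upward and 0 downward in limma, against 0.966% and 0.439% of all tested genes. An unadjusted P under 0.05 was reached by 9, all with higher EPS means, against 11.6% of all tested genes. On recovered reads, edgeR called 6 upward, of 329 upward over all genes, and DESeq2 called 5, of 317. The median difference was 0.78, against 0.10 for all genes with a mean of at least 1 CPM, and was 0.42 without EPS replicate 4. Ccnb2, a mitotic cyclin, was the gene that passed, at 13.5, 26.8 and 15.1 CPM in the control libraries and 36.8, 39.4, 26.4 and 62.2 CPM in the EPS libraries. Its groups overlapped (log2 difference 1.11, standard error 0.32, limma adjusted p = 0.222), and the call was lost without control replicate 1 (0.93), without control replicate 4 (1.00), without EPS replicate 1 (1.14), 2 (1.11) or 4 (0.89), with the replicate block (1.11) and under quantile or median-of-ratios scaling (0.99 and 1.00). Mki67, the proliferation marker, was at 391, 124, 205 and 452 CPM in EPS replicates 1 to 4, against 90.0 to 131 CPM in the control (limma adjusted p = 0.275), and was called in 6 of 16 alternatives, edgeR and DESeq2 among them. Top2a, a topoisomerase of dividing cells, was at 91.9 ± 20.5 CPM (SD, n = 3) and 178 ± 73.9 CPM (SD, n = 4), with a limma adjusted p of 0.398, and was called with the replicate block and without EPS replicate 2.

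EPS replicate 4 was also the highest EPS library for 17 of these 19 growth genes, or 89.5%. Over all 12256 genes with a mean of at least 1 CPM it was the highest for 21.8%. Among 21 myogenic genes of that level it was the highest for 0 and the lowest for 12, against 22.3% lowest over all genes. The library with the most Prl2c reads was thus the one with high growth and low myogenic genes among the 4, a description of 1 library. The other EPS libraries did not keep this order. EPS replicate 2, second in the Prl2c sum at 5.65 CPM, was the lowest EPS library for Mki67 (124 CPM) and Top2a (82.2 CPM). For Ccnb2 it was second (39.4 CPM). EPS replicate 1 had 391 CPM of Mki67 with a Prl2c sum of 3.03 CPM. Whether these values have a part in its Prl2c level was not tested.

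Among myogenic differentiation genes, 4 of 22 had a positive difference, and the list median was -0.47, or -0.37 without EPS replicate 4. Of the 22, 0 passed upward and 1 passed downward in limma, against 0.966% and 0.439% of all tested genes. An unadjusted P under 0.05 was reached by 4, all lower, against 11.6% of all tested genes. Myh4, the fast myosin heavy chain of glycolytic fibers, fell from 655, 525 and 363 CPM in the control libraries to 237, 37.7, 85.2 and 80.3 CPM in the EPS libraries. The log2 difference was -2.48 (standard error 0.52, limma adjusted p = 0.108), and the gene passed under all 16 alternatives. The most abundant structural genes, skeletal actin Acta1 (log2 difference -0.11, limma adjusted p = 0.930) and desmin (Des, -0.46, limma adjusted p = 0.780), did not pass.

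Secreted factors known for vessel growth, the role proliferin has in the placenta, were split, with a positive difference in 8 of 18. Of these, 0 passed upward and 1 passed downward in limma, and 4 had an unadjusted P under 0.05 in each direction (11.6% of all tested genes in both together), with a median of -0.07 that turned to 0.07 without control replicate 3 and 0.04 without EPS replicate 3. With either smaller pseudocount, edgeR or DESeq2, 3 more passed, all upward (Angptl7, Apln and Fgf1, named after their values were seen). Ctgf, a matricellular protein, fell from 105, 106 and 191 CPM in the control libraries to 56.8, 48.8, 44.9 and 52.4 CPM in the EPS libraries (log2 difference -1.33, standard error 0.22, limma adjusted p = 0.0712), and it passed under all 16 alternatives. Its relative Cyr61 was at 210, 172 and 219 CPM in the control libraries and 104, 112, 126 and 162 CPM with EPS, with no overlap but less than 2-fold (log2 difference -0.68, limma adjusted p = 0.201). Thbs1, an inhibitor of vessel growth and the most abundant gene of the list, had a log2 difference of -0.10 (standard error 0.60, limma adjusted p = 0.951).

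**Figure D4:**
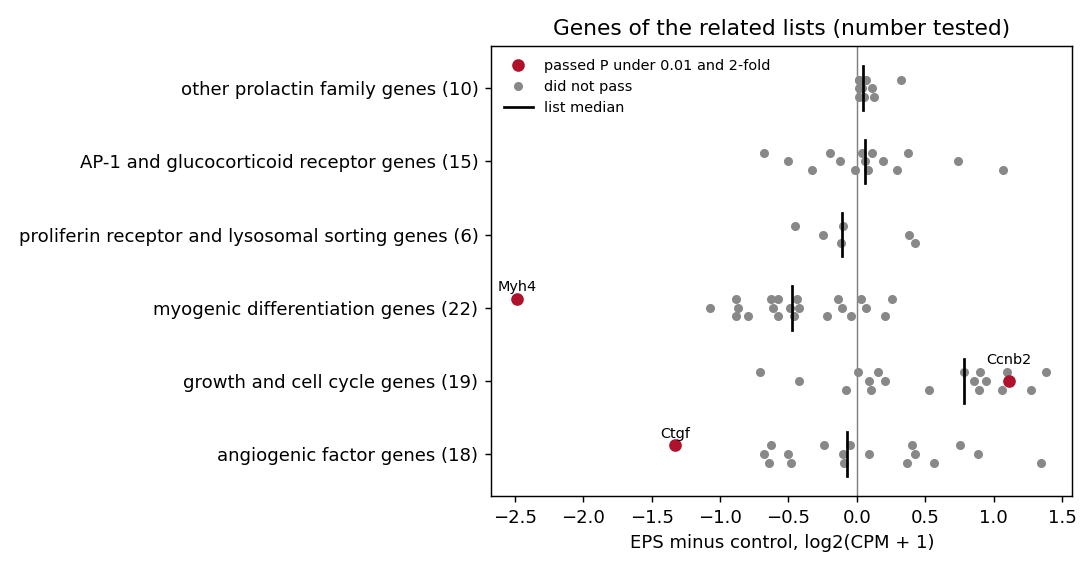
Difference of EPS minus control on the log2(CPM + 1) scale for each tested gene of the 6 related lists, 1 point a gene, with the list median as a bar and genes past the limma thresholds in red. The median of the growth list is 0.78 and that of the myogenic list is -0.47, and the other medians lie between -0.11 and 0.06.

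The chromosomal neighbours were read next, because the members lie side by side on 1 chromosome. Of 73 annotated genes within 1 Mb of a member, 19 were listed in the files and 18 tested. In limma 2 passed upward and 0 downward, the share of all tested genes being 0.966% and 0.439%, and 3 had an unadjusted P under 0.05 upward and 1 downward. Both that passed lie on the side of Prl2c5. Gpr137b (chr13:13357620-13394014, minus strand), a membrane protein of lysosomes, was at 10.3, 13.7 and 5.24 CPM in the control libraries and 35.4, 60.3, 41.6 and 64.3 CPM in the EPS libraries, 166 kb from Prl2c5. Its EPS libraries were all higher, and replicate 4 was close to replicate 2. The log2 difference was 2.30 (standard error 0.33, limma adjusted p = 0.0493), and it passed under all 16 alternatives. A near copy, Gpr137b-ps, lies on the Prl2c3 side, and reads could have been split between the copies. It had a log2 difference of 0.55 (standard error 0.18, limma adjusted p = 0.286).

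Nid1 (chr13:13437551-13512269, plus strand), nidogen of basement membranes, lies 246 kb from Prl2c5. It was at 238, 392 and 163 CPM in the control libraries and 620, 635, 576 and 1352 CPM in the EPS libraries. EPS replicate 4 stood apart from the rest as for Prl2c2 and Prl2c3, and less so for Prl2c5. The log2 difference was 1.58 (standard error 0.38, limma adjusted p = 0.152), and Nid1 did not pass without control replicate 4 (1.28), without both replicates numbered 4 (0.99) or with the replicate block (1.66). The other neighbours changed less. Lyst, a regulator of lysosome traffic, was at 67.7 ± 16.8 CPM (SD, n = 3) and 78.3 ± 13.5 CPM (SD, n = 4), with a limma adjusted p of 0.739. The tested gene closest to a member, the pseudogene Gm2423 at 40.2 kb from Prl2c5, was at 0.678 ± 0.250 CPM (SD, n = 3) and 1.14 ± 0.439 CPM (SD, n = 4), with a limma adjusted p of 0.512. On the Prl2c3 side, sarcomeric actinin Actn2 had an unadjusted P under 0.05 and was lower in every EPS library (log2 difference -0.99, standard error 0.26, limma adjusted p = 0.177). It was called downward in 7 of 16 alternatives, among them edgeR, DESeq2 and both scalings. The last 2 genes and Gpr137b-ps were named after their values were seen.

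**Figure D5:**
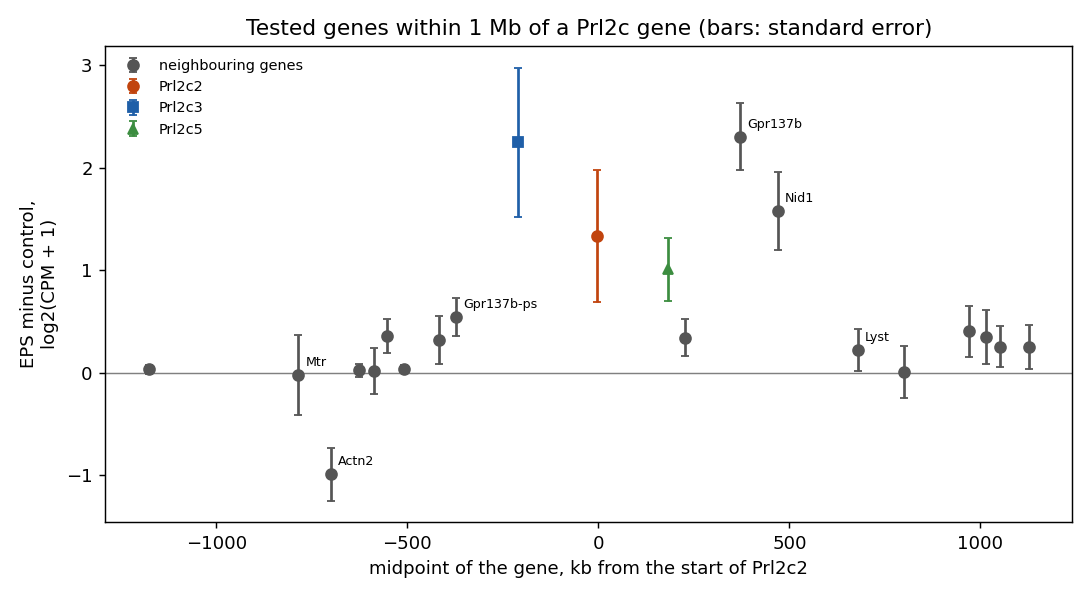
Difference of EPS minus control on the log2(CPM + 1) scale, with its standard error as a bar, for the tested genes within 1 Mb of a Prl2c gene, against the distance of the gene's midpoint from the start of Prl2c2 in kb. Gpr137b (2.30) and Nid1 (1.58) lie beyond Prl2c5, and Actn2 (-0.99) lies beyond Prl2c3.

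The genes whose pattern over the 7 libraries was most like the Prl2c sum were found by Pearson's r of log2(CPM + 1) over 12254 genes with a mean of at least 1 CPM. The 10 highest were Dnajc9 (0.984), Srxn1 (0.983), BC048355 (0.981), Rbpms2 (0.976), 2610034B18Rik (0.972), Gsta3 (0.969), Arl6ip1 (0.969), Aplf (0.968), Gsta2 (0.968) and Gdf15 (0.967). The median r over all genes was 0.18, and 139 genes were above 0.9, so the 10 are the top of a longer list. Srxn1, sulfiredoxin, which restores oxidized peroxiredoxins, was at 20.5, 26.7 and 33.8 CPM in the control libraries and 59.3, 62.0, 57.5 and 189 CPM in the EPS libraries. Gdf15, a secreted stress-linked member of the TGF-beta family, was at 1.05, 2.17 and 1.67 CPM in the control libraries and 3.72, 6.33, 4.11 and 12.7 CPM in the EPS libraries. Both repeat the Prl2c shape, a step between the groups and a further step in EPS replicate 4, which follows from how they were chosen. Gsta2, an alpha-class glutathione transferase with close paralogs, was at 0, 0.181 and 0 CPM in the control libraries and 2.61, 9.65, 4.66 and 37.1 CPM in the EPS libraries, where replicate 2 was second as it was for the Prl2c sum. Srxn1, Gdf15 and Gsta2 were the 3 of the 10 that passed the limma thresholds, with limma adjusted p of 0.185, 0.196 and 0.119. Dnajc9, the most alike, did not pass (log2 difference 0.61, limma adjusted p = 0.375). Without EPS replicate 4 the r of the 10 genes was still between 0.891 and 0.970. However, 0 of the 10 stayed among the 10 most alike, so which genes lead depends on that library. With a pseudocount of 0.1 CPM, 2 of the 10 stayed.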

How the data were processed

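The members, the gene lists and the tests were chosen with earlier results of these data known. The authors mapped poly(A) RNA-seq reads of C2C12 myotubes to GRCm38 with STAR 2.5.4b and deposited CPM, the reads of a gene divided by the sum of reads over all 26607 listed genes. No log or quantile step was found in the deposited values. How reads were counted, on which annotation and strand, and what became of reads with several matches is not given in the sources used here. This bears on the Prl2c genes, since a counter that drops such reads lowers Prl2c2 and Prl2c3 more than Prl2c5. All values (100%) were whole multiples of 1 read within 0.02, and whole reads were recovered.

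For the main result, log2(CPM + 1) of the 19144 genes above 0 in at least 1 library was tested in limma 3.58.1 (R 4.3.3) with a mean-variance trend, 3 control against 4 EPS libraries and no covariate. The call was an unadjusted P under 0.01 (two-sided) and over 2-fold, and Benjamini-Hochberg adjusted p were taken over all tested genes. Of the tested genes 269 were called, 185 up and 84 down, and 27 had an adjusted p under 0.05. The count tests, run as alternatives on recovered reads, called 629 genes (edgeR 4.0.16 quasi-likelihood) and 585 genes (DESeq2 1.42.0). Further alternatives were a replicate block, quantile normalization, scaling by median of ratios, smaller pseudocounts (0.5 and 0.1 CPM), a mean of at least 1 CPM, and each library left out. The fit was tested on simulated data. Pairs of libraries of 1 group differed by more than sampling noise, with a chi-square per degree of freedom of 48.9 or more.

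Named were the members, list genes that were called (up to 6 a list), the 2 most abundant genes of each list and the 10 genes most like the Prl2c sum. Other names are marked as chosen after their values were seen. Sequences and positions came from GENCODE M21 and RefSeq GRCm38.p6, and identity was computed with Biopython 1.88. Exact intervals came from SciPy 1.17.1.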

Additional observations from a re-analysis of the deposited data

Results flagged for a closer look

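In the EPS group, 8 of 35 genes or sums looked at had 1 library far from the other 3, and in each case it was EPS replicate 4. The gap to the nearest library, divided by the range, was above Dixon's 95% critical value. Chance passes that value in about 1 in 20 groups, a rate that does not hold for genes chosen on these libraries. It serves here only as a mark, not as a test. Prl2c2 was at 9.88 CPM there, against 0.274 to 0.877 CPM in EPS replicates 1 to 3, and Prl2c3 at 23.6 CPM, against 1.14 to 3.26 CPM. Counted together, Prl2c2 and Prl2c3 were at 33.5 CPM, against 1.42 to 4.14 CPM, and the sum of the 3 members was at 36.6 CPM, against 2.19 to 5.65 CPM. Prl2c5 did not pass this level. Beyond the members, the neighbour Nid1 was at 1352 CPM, against 576 to 635 CPM. Among the genes most like the Prl2c sum, Srxn1 was at 189 CPM, against 57.5 to 62.0 CPM, Arl6ip1 at 95.3 CPM, against 55.2 to 60.6 CPM, and Rbpms2 at 34.8 CPM, against 19.8 to 22.2 CPM. These 3 genes were chosen for their likeness to the members, both sums hold the reads of the members, and the members were chosen on these libraries, so the 8 are not independent of each other and their number is not set against chance.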

How the results depend on the processing

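The differences of the 3 members stayed above 0 in every setting run, and their size moved with the scale. Nothing is read from the sign. The genes were chosen on this contrast and every EPS library lay above every control library. Leaving out a library or changing the pseudocount could therefore not turn it. With a pseudocount of 0.1 CPM they were 3.64 (Prl2c2), 4.73 (Prl2c3) and 2.66 (Prl2c5), with edgeR 8.79, 7.35 and 2.5, and with DESeq2 8.06, 7.50 and 2.56. With 0 control reads, the edgeR and DESeq2 values of Prl2c2 depend on the prior count or fit and are no bound. Leaving out each library gave 0.63 to 1.66, 1.47 to 2.65 and 0.75 to 1.23. A minimum mean of 1 CPM left no value for Prl2c5. The shares of EPS reads ran from 15.7% to 25.4% (Prl2c2), 55.5% to 62.8% (Prl2c3) and 11.7% to 28.8% (Prl2c5), the values without EPS replicate 4 being 15.7%, 55.5% and 28.8%. Levels of a few reads limit Prl2c2 and the control values most.

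Over all genes, 601 were called with a pseudocount of 0.1 CPM, 629 with edgeR, 585 with DESeq2 and 161 with the replicate block, and 209 to 325 without 1 library. Up-regulated genes were 68.8% of calls on the deposited scale, 51.6% after quantile normalization, 52.8% after median-of-ratios scaling, 52.3% with edgeR and 54.2% with DESeq2, and 58.6% without control replicate 1. Same-numbered control and EPS libraries had deviations that correlated at 0.25, -0.45 and 0.068 for replicates 1, 3 and 4, so the numbers were not taken as a pairing. In the block fit, the members were at 1.48, 2.32 and 0.99.

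The number called in the lists moved as follows. For the prolactin family it was 1 with a pseudocount of 0.1 CPM, edgeR or DESeq2 (Prl7a1), and for AP-1 genes 1 with edgeR or DESeq2 and 0 to 1 without 1 library (Fosl1). For myogenic genes it was 2 with edgeR, 3 with DESeq2 and 1 to 2 without 1 library. For growth genes it was 2 (pseudocount of 0.5 CPM), 4 (0.1 CPM), 4 (minimum mean), 0 (quantile or median-of-ratios scaling), 6 (edgeR), 5 (DESeq2), 2 (block) and 0 to 4 without 1 library. The 1 gene called without EPS replicate 4 was Ccnd1, which was lower with EPS. For angiogenic genes it was 4 (3 of them upward) with either smaller pseudocount, edgeR or DESeq2, 2 with the minimum mean and 1 to 3 without 1 library. For neighbours it was 1 in the block fit and 1 to 3 without 1 library, and Actn2 was added, as lower, with a pseudocount of 0.1 CPM, either scaling, edgeR and DESeq2. Leaving out both libraries numbered 4, chosen after the data were seen, gave 0 growth genes and 1 neighbour. Of the 10 genes most like the Prl2c sum, 2 stayed with a pseudocount of 0.1 CPM and 0 without EPS replicate 4.

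Of the named list genes, those near 0 changed sign. Acta1 was at 0.088 and Thbs1 at 0.30 after quantile normalization, and Thbs1 ran from -0.33 to 0.093 without 1 library. Ghr was at -0.00099 with median-of-ratios scaling and -0.10 in the block fit, with -0.10 to 0.27 without 1 library. Igf2 was at 0.072 in the block fit and 0.16 without both libraries numbered 4, and ran from -0.32 to 0.11 without 1 library. Jund ran from -0.46 to 0.19 without 1 library and was at 0.29 without both. The cause was not tested.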
